A study of Homo sapiens with 2 samples.

Results

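Chromatin modifiers and remodelers are the enzymes and binding proteins that set, remove or read marks on histones and DNA, or that move nucleosomes. They were chosen by gene symbol, namely the SMARC, HDAC, SIRT, KDM, KMT, SETD, CHD, ARID, CBX, DNMT and TET families with EZH1, EZH2, EED, SUZ12, RING1, UHRF1, HELLS, EP300 and CREBBP. This choice gave 113 genes, read by 333 probe sets, of 19775 genes and 54613 probe sets on the array. Of the 113 genes, 107 stand in families with a known role, and 6 are antisense or divergent transcripts or a pseudogene that share the name of a family. ARID3C, ARID4A, BMI1, CBX8, KDM4E and RNF2 were not analysed here.

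The samples were U87 cells, an established human glioblastoma line, transfected at 50 nM with a non-silencing control siRNA or with HOXD9 siRNA-2, which targets the homeobox transcription factor HOXD9. RNA was taken on Day 2 and hybridized to Affymetrix U133 Plus arrays, 1 array per condition. With 1 array each, no SD, p-value or test between conditions can be given, and no array of a second HOXD9 siRNA was analysed here. Each value is a signal intensity of a probe set, a group of short probes for 1 transcript, and each difference is the log2 ratio of HOXD9 siRNA-2 over control siRNA. Signals given in pairs are those of the control siRNA array first and of the HOXD9 siRNA array second.

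DNA in the nucleus is wound around histones, and the chemical marks on both decide which genes can be read. Methylated histone H3 lysine 9 is bound by the HP1 proteins and marks compact heterochromatin, whereas Polycomb complexes mark silent developmental genes, the HOX clusters among them, by methylation of lysine 27. Dividing cells have to copy DNA methylation and histone marks onto new DNA, and several of the proteins that do so are made mainly in cells entering S phase. Altered EZH2, SWI/SNF and DNA methylation are well known in gliomas.

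Over all probe sets the median signal was 22.5 on the control array and 18.3 on the other. Centering both arrays on these medians adds 0.30 to every log2 ratio. Groups of genes are therefore described relative to the median of all genes, -0.25, which this shift does not touch. Probe sets for Bacillus subtilis transcripts, not made by human cells, reached 11.4 and 18.4 on the 2 arrays, and a signal at or under 18.4 is called background. The targeted HOXD9 itself was dim, with 19.7 and 5.58 on 1 probe set and 9.33 and 11.4 on the other. Of these signals only the 19.7 lay above background, so the extent of the HOXD9 knockdown cannot be read from these arrays. Of 8 markers of glioma cells, VIM, NES and CD44 passed the signal filter, with 11349 and 10823 for VIM on the control and HOXD9 siRNA arrays, while GFAP and S100B were at background. SOX2, OLIG2 and PROM1 did not pass it either. Among 6 markers of other cell types, PECAM1 (43.4 and 40.3) and EPCAM (28.2 and 23.8) passed the filter, and PTPRC, KRT5, RBFOX3 and MBP did not.

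A probe set was kept when its mean signal reached 19.8, the median of all, and a gene was represented by its brightest kept probe set. By this filter 102 of the 113 genes and 237 of the 333 probe sets were kept. Of the 11 genes without a kept probe set, CHD5, DNMT3L, SIRT4, ARID3B, KDM4D, CBX3P2, HDAC2-AS2 and SMARCAD1-DT had every signal within the background. HDAC11 had 20.4 and 2.47, and the antisense transcript KMT2E-AS1 27.2 and 8.54. No level is given for KDM5D, which is Y-linked.

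As a set, the chromatin genes did not stand apart from other genes. Of the 102, 6 genes, or 5.88%, were lower by more than 2-fold, beside 4.95% of all 11624 genes, and 1 gene, or 0.98%, was higher, beside 0.516% of all. Their median log2 ratio was -0.27, against -0.25 over all genes. The middle part of the distribution, between the lower and upper quartile, ran from -0.51 to -0.10 for chromatin genes and from -0.48 to -0.07 for all genes. Below the median of all genes lay 55 of the 102, or 53.9%, where 50.0% of all genes lie by definition. The arrays read bulk RNA, in which fewer cells of a kind and less RNA per cell cannot be told apart.

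The 6 lower genes were HDAC5, SIRT3, HELLS, KDM7A, CBX2 and SMARCD2, and the higher one was SETD1A. HELLS, SIRT3 and SMARCD2 were above background on both arrays. In HDAC5, KDM7A and CBX2 the HOXD9 siRNA signal lay within the background, and in SETD1A the control siRNA signal did. Taken against 18.4, 4 of the 6 were lower by more than 2-fold, or 3.92%, beside 4.14% of all genes, and SETD1A was higher, beside 0.249%. With the arrays centered, 5 of 102 chromatin genes were lower, beside 268 of all 11624 genes, or 2.31%. Higher were 2 of 102, beside 136 of 11624, or 1.17%. Centered and taken against the background, 2 of 102 were lower, HELLS and SIRT3, beside 169 of 11624, or 1.45%. Higher was 1 of 102, beside 71 of 11624, or 0.611%.

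**Figure D1:**
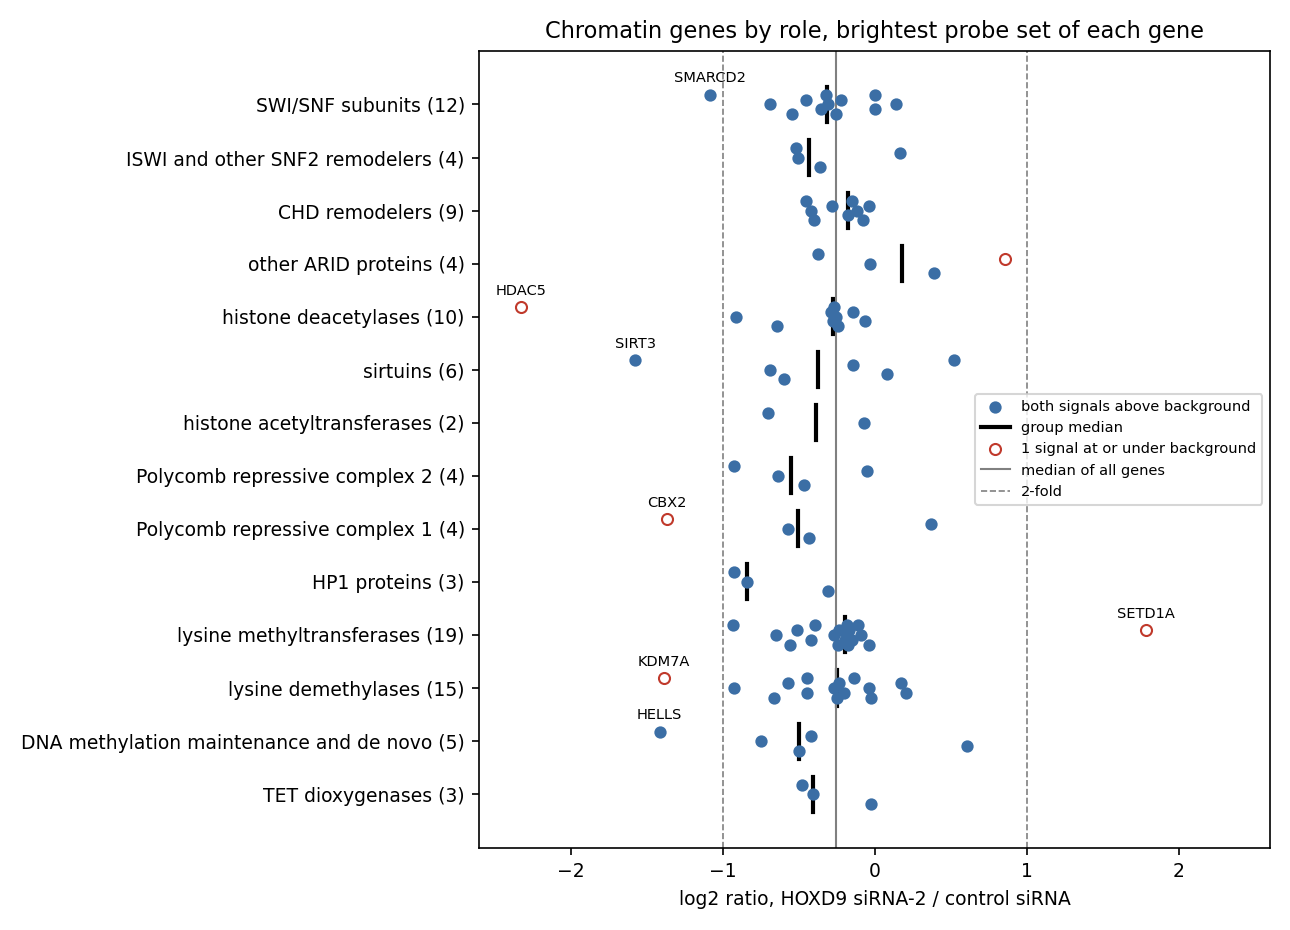
The x axis is the log2 ratio, drawn as 1 point per chromatin gene, from its brightest probe set, in rows by role with the number of genes in parentheses. Black bars are row medians, the gray line is the median of all genes, -0.25, dashed lines mark 2-fold, and open red points have 1 signal at or under the background of 18.4. The 3 HP1 genes all lie left of the gray line, and 4 of the 7 points past 2-fold are open.

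Promoters of the chromatin genes were then read. Promoter sequences of RefSeq on GRCh38.p14, from 250 bases before to 50 bases after the start of the gene, were matched to 99 of the 113 genes. They were searched on both strands for the first 7 letters of the E2F site, which binds the factors that switch on S-phase genes (TTTGGCG or TTTCGCG or TTTGCCG or TTTCCCG), and for the CCAAT box, which binds NF-Y (CCAAT). E2F letters stood in 16 of 92 promoters of kept chromatin genes, or 17.4%, in 13.4% of 9518 promoters of all genes above the filter, and in 8.69% of 27305 promoters in all. CCAAT stood in 34.8%, 37.0% and 35.7%. The median share of G and C bases in these promoters fell in the same order as the E2F shares, 68.3%, 65% and 58.3%. Its part in the E2F shares was not tested.

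The 16 genes with E2F letters had a median log2 ratio of -0.36 and the 76 without them -0.25, beside -0.27 and -0.25 over all genes above the filter. They included HELLS, UHRF1 and DNMT1 of DNA methylation, EZH1, EZH2 and SUZ12 of Polycomb, and CBX3 and CBX5 of HP1, as well as genes near the median such as KDM5A and SMARCA4. SIRT3, SMARCD2, CBX1 and KDM7A held neither motif in this window, and HDAC5 and CBX2 had no matched promoter to search. Past 2-fold lower were 1 of the 16 genes with E2F letters, HELLS, and 3 of the 76 without them. Over all genes above the filter these were 56 of 1275 and 379 of 8243. The lower genes thus did not share the E2F letters. A match is a description of letters and not a bound site.

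The promoters of HELLS, UHRF1, EZH2 and CBX5 are shown, since these genes stand for the lower groups described next and held both motifs. They were chosen after their values were seen. Capitals mark the E2F letters and CCAAT in either orientation, in UHRF1 with 2 E2F matches that overlap. The HELLS window is chr10:94545538-94545837 on the plus strand, that of UHRF1 chr19:4909251-4909550 on the plus strand, that of EZH2 chr7:148884242-148884541 on the minus strand and that of CBX5 chr12:54280073-54280372 on the minus strand.
HELLS promoter: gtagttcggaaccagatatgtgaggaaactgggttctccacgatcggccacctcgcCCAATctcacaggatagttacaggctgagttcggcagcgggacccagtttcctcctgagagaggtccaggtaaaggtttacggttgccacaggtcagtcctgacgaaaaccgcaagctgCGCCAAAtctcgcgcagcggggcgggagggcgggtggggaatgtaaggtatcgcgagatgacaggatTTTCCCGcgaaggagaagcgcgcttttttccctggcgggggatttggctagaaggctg
UHRF1 promoter: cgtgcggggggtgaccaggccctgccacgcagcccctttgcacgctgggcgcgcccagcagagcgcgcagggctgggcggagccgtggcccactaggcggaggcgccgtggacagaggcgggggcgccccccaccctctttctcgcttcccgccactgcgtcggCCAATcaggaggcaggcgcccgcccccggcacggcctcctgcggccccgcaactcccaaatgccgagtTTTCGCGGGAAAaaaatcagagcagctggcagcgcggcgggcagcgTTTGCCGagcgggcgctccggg
EZH2 promoter: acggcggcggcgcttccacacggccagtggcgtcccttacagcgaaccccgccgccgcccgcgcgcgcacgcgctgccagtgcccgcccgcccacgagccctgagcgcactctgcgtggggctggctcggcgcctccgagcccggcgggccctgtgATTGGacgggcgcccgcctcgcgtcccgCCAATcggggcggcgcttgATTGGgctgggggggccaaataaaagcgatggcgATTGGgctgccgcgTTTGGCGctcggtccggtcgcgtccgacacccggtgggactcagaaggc
CBX5 promoter: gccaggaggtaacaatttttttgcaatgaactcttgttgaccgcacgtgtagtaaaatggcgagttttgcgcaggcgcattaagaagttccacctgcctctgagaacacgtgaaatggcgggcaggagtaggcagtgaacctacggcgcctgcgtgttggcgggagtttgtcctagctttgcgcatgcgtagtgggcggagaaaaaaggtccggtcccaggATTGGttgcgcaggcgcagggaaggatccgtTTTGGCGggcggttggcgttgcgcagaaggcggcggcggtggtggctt

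In HELLS (log2 ratio -1.41) an E2F match began 8 bases before the start site and another 75 bases before it. UHRF1 (-0.75) had matches from 18 and 13 bases before the start, and a further one after it. EZH2 (-0.64) held 4 CCAAT boxes, from 94 to 13 bases before the start, and CBX5 (-0.84) held 1 at 29 bases before it.

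Within the set, the genes that copy DNA methylation onto new DNA were on the lower side. HELLS, a SNF2-type remodeler required for normal DNA methylation, went from 435 to 163 on its brightest probe set, with a log2 ratio of -1.41, 37.5% of the control. Its other 3 kept probe sets went from 252 to 128, from 314 to 224 and from 156 to 137, with log2 ratios of -0.98, -0.49 and -0.19. Every HELLS probe set above the filter was thus lower with HOXD9 siRNA-2, but by very different amounts, and only the brightest passed 2-fold. Averaged over its probe sets HELLS had a log2 ratio of -0.77, short of 2-fold, and after centering the dimmest of the 4 stood at 0.12.

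UHRF1, which binds hemimethylated DNA and brings in the maintenance enzyme, went from 908 to 540, a log2 ratio of -0.75. DNMT1, the maintenance methyltransferase, went from 1001 to 748, or -0.42. Both signals were far above background, and both ratios fell short of 2-fold. DNMT3B, a de novo methyltransferase, had 128 and 90.9, or -0.50. DNMT3A, the other de novo enzyme, was dim and its 2 kept probe sets opposed each other, with 26.1 and 39.7 on the brighter (0.61) and 27.6 and 18.1 on the other (-0.61). No direction can therefore be given for DNMT3A.

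The median of the 5 kept genes of DNA methylation minus that of all genes was -0.25, and -0.25 to -0.20 over the deposited, centered, quantile and loess scalings. Beside this group, 15 genes of the G1/S transition and of DNA replication, listed for context, had a median log2 ratio of -0.75, 15 of 15 lay below the median of all genes, and 4 passed 2-fold, or 1 after centering. MCM2, a subunit of the replicative helicase, had -0.84, PCNA, the sliding clamp, -0.66 and CDC6, a loading factor, -1.12. The part of these proliferation genes in the chromatin values was not tested. The 3 TET enzymes, which oxidize methylated cytosine, had log2 ratios of -0.48 for TET1 (35.8 and 25.7), -0.40 for TET2 (164 and 124) and -0.02 for TET3 (120 and 119). A dimmer TET3 probe set gave 41.1 and 21.3, or -0.95, so the reading of TET3 depended on the probe set.

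HP1 proteins, the readers of methylated lysine 9, had the lowest median of the 14 role groups, -0.84 over 3 genes. CBX1, which encodes HP1-beta, went from 1178 to 620, a log2 ratio of -0.93. CBX5, which encodes HP1-alpha, had 6 kept probe sets, more than most members. With control siRNA and HOXD9 siRNA-2 they read 1029 and 575, 506 and 227, 464 and 268, 294 and 256, 90.1 and 40.7, and 88.1 and 49.4. Their log2 ratios were -0.84, -1.15, -0.79, -0.20, -1.15 and -0.84, so that 6 of 6 were lower, 2 of them past 2-fold, and 5 of 6 were below -0.7. After centering, 5 of these 6 still read lower and none passed 2-fold, the lowest standing at -0.85.

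CBX3, which encodes HP1-gamma, differed less on its bright probe sets. It went from 2513 to 2029 and from 1702 to 1274 there, log2 ratios of -0.31 and -0.42. On dim ones CBX3 gave 75.0 and 37.0 (-1.02) and 24.1 and 28.1 (0.22). All 3 HP1 genes were below the median of all genes, and the group median minus it was -0.62 to -0.59 over the same 4 scalings. CBX3 itself lay close to it, and with both arrays centered its brightest probe set stood at -0.01.

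Among the enzymes that write the mark HP1 reads, SETDB1 had 92.9 and 59.3, a log2 ratio of -0.65, and -0.51 on its other kept probe set, while SETDB2 had 53.6 and 49.8, or -0.11, with 0.41 on its other probe set. From the partner lists, EHMT1 went from 216 to 94.1, or -1.20, with -0.75 as the highest of its 3 kept probe sets. SUV39H1 went from 142 to 80.0, or -0.83. SUV39H2 and EHMT2 had -0.19 and -0.27, near the median of all genes. SETDB1, EHMT1 and SUV39H1 thus read lower than SETDB2, EHMT2 and SUV39H2. These genes were set together after their values were seen, and SUV39H1 and EHMT2 rested on 1 kept probe set each, so no pattern is drawn from them.

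Polycomb repressive complex 2 methylates lysine 27 of histone H3. EED, the subunit that binds the finished mark, went from 423 to 223, with a log2 ratio of -0.92, 52.8% of the control. EZH2, the catalytic subunit of dividing cells, went from 495 to 318, or -0.64. SUZ12, the scaffold, went from 696 to 505, or -0.46, and its other kept probe set from 32.6 to 22.3, or -0.55. None of these core subunits passed 2-fold.

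EZH1, the catalytic subunit that persists in resting cells, read differently. Its 4 kept probe sets had 70.3 and 68.0, 54.5 and 49.0, 44.9 and 53.6, and 21.6 and 34.4, with log2 ratios of -0.05, -0.15, 0.26 and 0.67. The lowest of these, -0.15, was above the -0.64 of the single EZH2 probe set. The median of the 4 PRC2 genes minus that of all genes was -0.31 to -0.30 over the 4 scalings, with 3 of 4 genes below it. Without probe sets ending in _x_at or _s_at, 2 of the 4 genes were left and the difference was 0.02, so the lower position was lost. RBBP4, a histone-binding subunit shared with other complexes, had -0.65, with 6 probe sets from -0.70 to -0.33.

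Of Polycomb repressive complex 1, which ubiquitinates histone H2A, 4 genes were kept. CBX2, a chromobox reader, had 31.0 with control siRNA and 12.0, within the background, with HOXD9 siRNA-2. It was at least 1.68-fold lower, or 1.37-fold after centering, so its measured log2 ratio of -1.36 is not secured. CBX7 went from 87.3 to 58.7 (-0.57) and the ubiquitin ligase RING1 from 245 to 182 (-0.43). CBX6, by contrast, read higher with HOXD9 siRNA-2 on both of its kept probe sets, 538 and 696 (0.37) and 164 and 198 (0.27). Among chromatin genes with a ratio above 0 it had the brightest signal. None of 13 Polycomb partners, such as JARID2 at -0.34 and PCGF6 at -0.72, passed 2-fold on its brightest probe set.

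SWI/SNF complexes slide or evict nucleosomes at promoters and enhancers. SMARCD2, an accessory subunit, went from 138 to 65.2 on its 1 kept probe set, a log2 ratio of -1.08 that became -0.78 with the arrays centered. ARID2, a subunit of the PBAF form, was lower on 4 of 4 probe sets, from -0.69 to -0.49, with 163 and 101 on the brightest. SMARCC1, a core scaffold subunit, had 404 and 277, 232 and 162, 145 and 107, and 122 and 51.8, with log2 ratios of -0.55, -0.52, -0.45 and -1.24. SMARCC1 was thus lower on all 4, past 2-fold only on the dimmest.

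Of the SWI/SNF ATPases, SMARCA4 was close to the median of all genes and SMARCA2 somewhat below it. SMARCA4 ranged from -0.72 to -0.22 over 7 probe sets, with 858 and 737 on the brightest, and SMARCA2 from -0.92 to 0.05 over 5, with 446 and 327. SMARCE1 had -0.31 on its brightest probe set (871 and 704) and -1.21 on its dimmest (43.8 and 18.9), and SMARCB1, the core subunit lost in rhabdoid tumors, -0.25 (378 and 318). ARID1A, the subunit of the BAF form, had -0.36 (597 and 467), its paralog ARID1B 0.00 (135 and 135), SMARCC2 0.00 (330 and 331), SMARCD3 -0.32 and SMARCD1 0.14 (158 and 174). The other kept probe set of SMARCC2 went from 99.3 to 58.0, or -0.78, and that of SMARCD1 had -0.33. The readings of SMARCC2 and SMARCD1 thus depended on the probe set. Over the 12 subunits the median was -0.31, and 1 passed 2-fold, or 0 after centering. Of 11 kept SWI/SNF partners, DPF1, a reader found in neural forms of the complex, passed 2-fold on its brightest probe set, from 72.0 to 32.2 or -1.16. PBRM1 had -0.37 on its brightest probe set and reached -1.72 over 5 kept probe sets.

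Among the remodelers outside SWI/SNF, the ISWI ATPases were lower by like amounts on every kept probe set. SMARCA1 had 519 and 364, 437 and 308, and 351 and 247, a log2 ratio of -0.51 on all 3. SMARCA5 had 494 and 348, 342 and 261, and 179 and 123, with -0.50, -0.39 and -0.54. SMARCAL1, a helicase that restarts stalled forks, had 260 and 291, or 0.17, and SMARCAD1 300 and 234, or -0.36. Of 8 ISWI partners 6 lay below the median of all genes, with POLE3, a histone-fold subunit shared with DNA polymerase epsilon, lowest at -0.87 (1167 and 637), and none passed 2-fold.

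On their brightest probe sets, CHD remodelers stayed near the median of all genes. There, 9 of 9 kept genes lay between -0.45 and -0.04, with a median of -0.18. CHD6 had the lowest value, 119 and 87.1, and CHD1L, a remodeler activated by poly(ADP-ribose), the highest, 668 and 651. CHD1L also had the widest disagreement of the 9, with -0.20, 0.34 and -1.13 on its dimmer probe sets, the last from 67.9 to 31.1. CHD4, the ATPase of the NuRD repressor, had -0.15 (429 and 388), and its paralog CHD3 -0.40 (178 and 135). CHD1, CHD2, CHD7, CHD8 and CHD9 lay between -0.42 and -0.08 on their brightest probe sets. The other kept probe set of CHD7 had 104 and 58.1 (-0.84), and that of CHD3 54.7 and 32.2 (-0.77). No NuRD partner of 8 kept passed 2-fold, MBD3 being lowest at -0.72.

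Histone deacetylases remove acetyl groups and oppose transcription. The class I enzymes were alike, with HDAC1 at -0.27 (1201 and 997), HDAC2 at -0.25 (1078 and 905), HDAC3 at -0.27 (326 and 270) and HDAC8 at -0.24 (146 and 124). All 4 lie between -0.27 and -0.24, around the median of all genes.

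Class II deacetylases were spread more widely. HDAC5, a class IIa enzyme that shuttles between nucleus and cytoplasm, had 37.1 and 7.40, the second within the background, and was at least 2.02-fold lower, or 1.64-fold after centering. Its measured log2 ratio of -2.33, the lowest of all chromatin genes, has no more weight than that bound, and its other probe set stayed within the background. HDAC10 had 53.5 and 28.5 (-0.91), HDAC6, which deacetylates tubulin, 163 and 105 (-0.64), HDAC9 128 and 105 (-0.29), HDAC4 204 and 184 (-0.14) and HDAC7 39.3 and 37.6 (-0.06). HDAC6 had 1 kept probe set. Another, just short of the filter at a mean signal of 19.7, went the other way, with 4.78, within the background, and 34.7. All 10 kept deacetylases were below 0, as were 83.2% of all genes, and 7 were below the median of all genes.

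Sirtuins are deacylases that use NAD. SIRT3, the main deacetylase of mitochondria, had 82.1 and 27.5 on its brightest probe set, a log2 ratio of -1.58 (-1.28 after centering). Its other kept probe sets had 55.6 and 49.3 and 31.0 and 30.0, or -0.17 and -0.04. The call of SIRT3 thus rested on 1 probe set of 3, and the mean over them was -0.60. SIRT5, also mitochondrial, had 55.7 and 34.6 (-0.69), and SIRT1, the nuclear enzyme, 199 and 131 (-0.60). SIRT2, which acts mainly in the cytoplasm, read higher, with 119 and 170 or 0.52, while SIRT6 (0.08) and SIRT7 (-0.14) differed little.

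The acetyltransferase pair EP300 and CREBBP, coactivators at enhancers, read apart on the kept probe sets. EP300 went from 138 to 84.8 and from 50.0 to 40.1, log2 ratios of -0.70 and -0.32. CREBBP had 279 and 265, and 47.5 and 41.9, or -0.07 and -0.18. The kept probe sets of the 2 genes, 2 of each, did not overlap in log2 ratio. A CREBBP probe set short of the filter had 24.8 and, within the background, 2.37, at least 1.35-fold lower, or 1.10-fold after centering. All 7 kept acetyltransferases among the partners were below 0, from -0.51 for KAT8 to -0.16 for KAT5, as were 83.2% of all genes, and none passed 2-fold.

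Lysine methyltransferases of histone H3 lysine 4 act at promoters and enhancers. SETD1A, a catalytic subunit of the COMPASS complex, was dim, with 16.1 and 55.4, and was at least 3.01-fold higher against the background of 18.4. The control signal lay above the 11.4 of its own array, so the bound is strict. It is also the only SETD1A probe set. SETD1B, its paralog, was lower, 244 and 128 or -0.93. ASH2L, a core subunit of the same complexes, went from 620 to 265, or -1.23, whereas its partners WDR5, RBBP5 and DPY30 had -0.10, -0.29 and 0.01. Both SETD1B and ASH2L rested on 1 kept probe set, and ASH2L stood at -0.93 after centering.

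Of the KMT2 enzymes, KMT2D was lower on its brightest probe set, at -0.51 (342 and 240). The others were nearer the median of all genes there, with KMT2E at -0.24, KMT2A at -0.20, KMT2C at -0.09 (549 and 515) and KMT2B at -0.04. This order depended on the probe set, as KMT2E ran from -0.86 to -0.24 over 3 kept probe sets. Its mean was -0.52, beside -0.41 for KMT2D. Of 5 kept KMT2A probe sets the 4 others had -0.45, -0.11, -1.01 and 0.37. SETD2, which trimethylates lysine 36, had -0.39 (244 and 186), SETD7 -0.24 (1100 and 934), and KMT5A, which methylates histone H4 in the cell cycle, -0.27 (380 and 315). SETD9 had -0.55 (199 and 136), and KMT5B, KMT5C, SETD3, SETD4, SETD5 and SETD6 lay between -0.42 and -0.15 on their brightest probe sets. Several of these readings depended on the probe set. Over kept probe sets SETD2 ran from -0.39 to 0.23, SETD9 from -0.55 to 0.21 and KMT5B from -0.17 to 0.29. KMT5A ran from -0.77 to -0.23 and SETD5 from -0.66 to 0.17, while SETD4 and SETD6 reached -0.68 and -0.69. Over 19 methyltransferases the median was -0.20, and 7 lay below the median of all genes.

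Lysine demethylases likewise did not differ from other genes as a group, with a median of -0.25 over 15. KDM7A, which removes methyl groups from lysines 9 and 27, had 29.9 and, within the background, 11.4. Its bound was 1.63-fold lower, or 1.32-fold after centering. KDM1B, a flavin-dependent demethylase, was lower on both probe sets, 92.3 and 48.7 (-0.92) and 34.4 and 20.1 (-0.77). Its paralog KDM1A had 306 and 206 (-0.57), and KDM4A, which acts on lysines 9 and 36, 104 and 66.1 (-0.66). KDM2A, KDM2B, KDM3B, KDM4C, KDM5C and KDM8 lay between -0.44 and -0.02 on their brightest probe sets, and KDM4C reached -0.76 on another.

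At the other end, KDM4B had 402 and 465 (0.21) and 243 and 283 (0.22), but -0.02 and -0.43 on dimmer probe sets. KDM5B, which removes methylation of lysine 4, had 204 and 230 (0.18), with -0.36 to 0.46 over 4 probe sets, and KDM5A -0.13 (328 and 299). KDM6A, a demethylase of the Polycomb mark, had -0.04 (113 and 110) and KDM6B -0.27 (166 and 138). Over kept probe sets KDM6A ran from -0.04 to 0.18 and KDM6B from -0.88 to -0.20.

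The other ARID proteins, which bind AT-rich DNA, were few and mostly dim. ARID5A had 16.8, within the background, and 30.4, at least 1.65-fold higher. ARID3A had 0.39 (24.2 and 31.7), with -0.18 on its other probe set, ARID4B -0.37 (312 and 241) and ARID5B -0.03 (297 and 290). Their median lay 0.43 above that of all genes, and the higher genes were the dim ones. Of the 6 antisense, divergent and pseudogene entries, KDM7A-DT (33.7 and 34.1) and HDAC4-AS1 (26.1 and 31.1) were kept.

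Paralogs were set side by side in 12 pairs, as a description of their brightest probe sets. EP300 lay 0.63 below CREBBP, EZH1 0.59 above EZH2, SMARCC1 0.55 below SMARCC2, CBX3 0.53 above CBX5 and KMT2C 0.42 above KMT2D. For SMARCC1 with SMARCC2, CBX3 with CBX5 and KMT2C with KMT2D the ranges over kept probe sets overlapped. HDAC1 and HDAC2 differed by 0.02. In 4 of the 12 pairs the kept probe sets of the paralogs did not overlap in log2 ratio. These were HDAC1 with HDAC2, KDM6A with KDM6B, EP300 with CREBBP and EZH1 with EZH2. No share over other pairs of genes was computed, so this count stands without a comparison. Since HDAC1 and EZH2 have 1 kept probe set each, and HDAC1 and HDAC2 hardly differ, a gap between probe sets does not by itself mark a difference between genes. No value is set for DNMT3A against DNMT3B, as the 2 probe sets of DNMT3A lie on either side of DNMT3B.

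Probe sets of 1 gene read the same RNA on the same 2 arrays, so they are no replicates of a condition, and their agreement describes the measurement alone. Of 64 chromatin genes with 2 or more kept probe sets, 37, or 57.8%, were below 0 on every one, beside 62.8% of all such genes, and 8, or 12.5%, had a probe set lower by more than 2-fold, beside 14.7%. For 8 of the 64 the probe sets spread over more than 1 on the log2 scale, or 12.5% beside 13.3%. Where along a transcript each probe set lies was not examined.

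**Figure D2:**
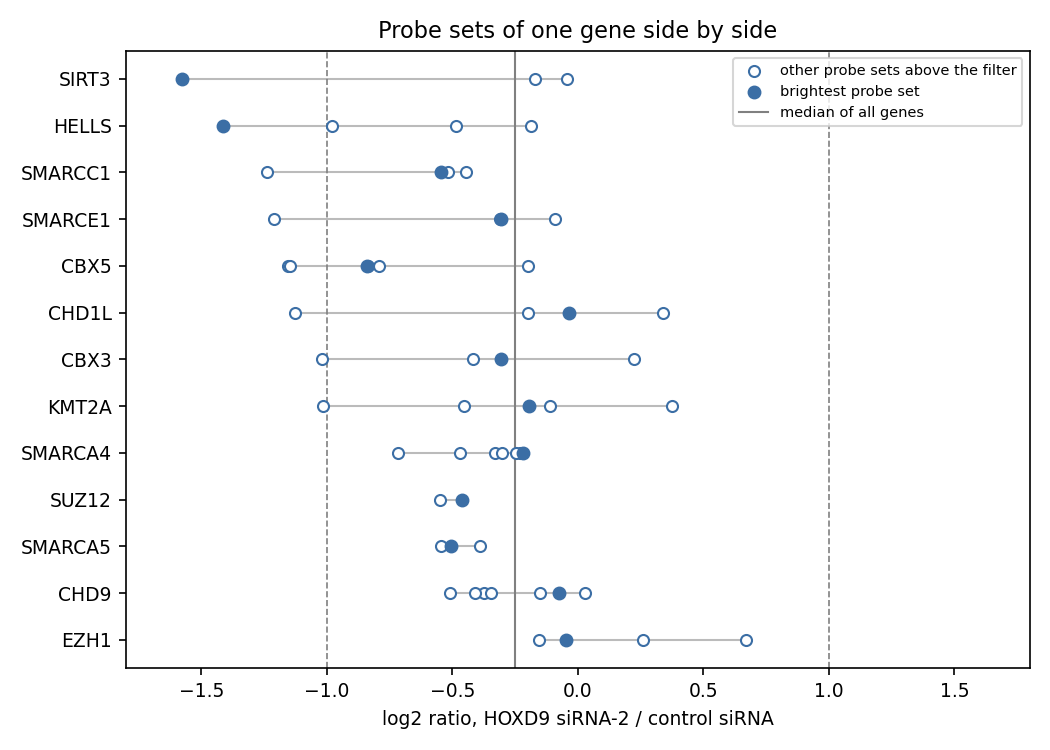
Every kept probe set of 13 chromatin genes is placed by its log2 ratio (x axis), the brightest of a gene filled and the others open, with 2-fold dashed. The genes are those with 3 or more kept probe sets of which 1 or more passed 2-fold, and 5 others for comparison. SIRT3 has its brightest probe set at -1.58 and the others near 0, whereas the points of CBX5 lie mostly between -1.15 and -0.79.

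Over single probe sets, 13 of 237 chromatin probe sets, or 5.49%, were lower by more than 2-fold, beside 6.26% of all, and 1 was higher, beside 0.582%. Of these, HELLS (299) and CBX5 (367) alone had one with a mean signal above 200.

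**Figure D3:**
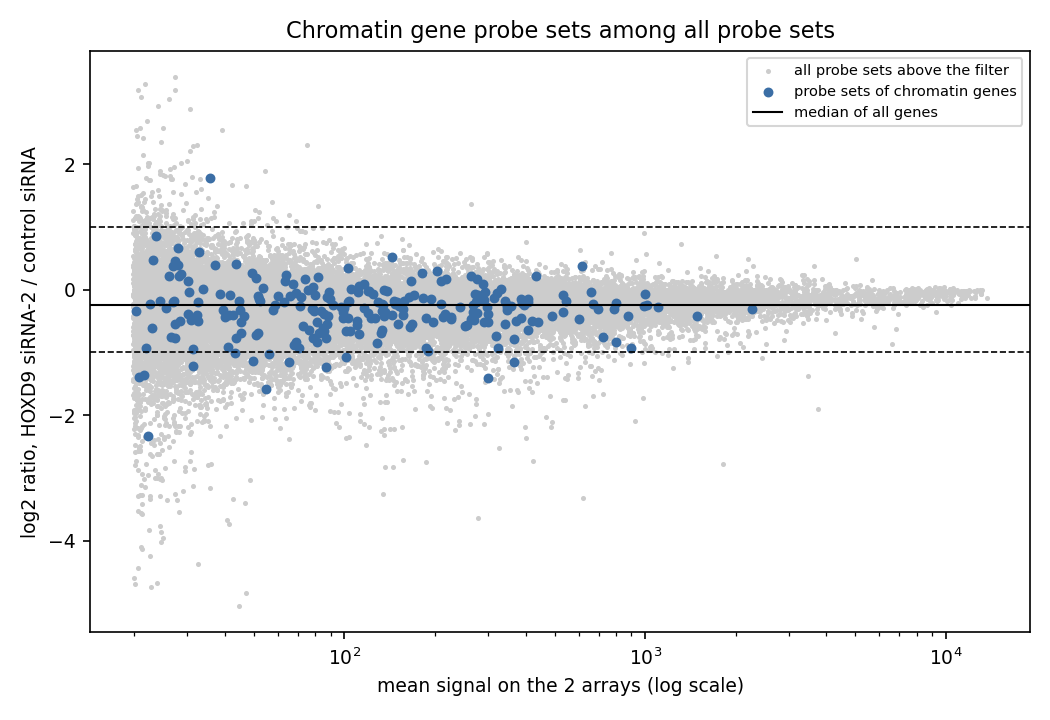
The y axis gives the log2 ratio of a kept probe set and the x axis, a log scale, its signal averaged over both arrays, with the 237 probe sets of chromatin genes in blue. The median of all genes, -0.25, is the solid line, and 2-fold is dashed. Blue points lie within the gray cloud, and 13 are past 2-fold lower and 1 past 2-fold higher.

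Of the partner genes, which act in the same complexes or reactions, outside these families, 62 of 65 were kept. On their brightest probe sets 3 of them, ASH2L, EHMT1 and DPF1, were lower by more than 2-fold, or 4.84% beside 4.95% of all genes. None was higher there, though NSD1 ran from -0.95 to 1.12 over 4 kept probe sets. With the arrays centered, 0 of 62 passed 2-fold on the brightest probe set. Their median was -0.32, and -0.06 after subtracting that of all genes.

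**Figure D4:**
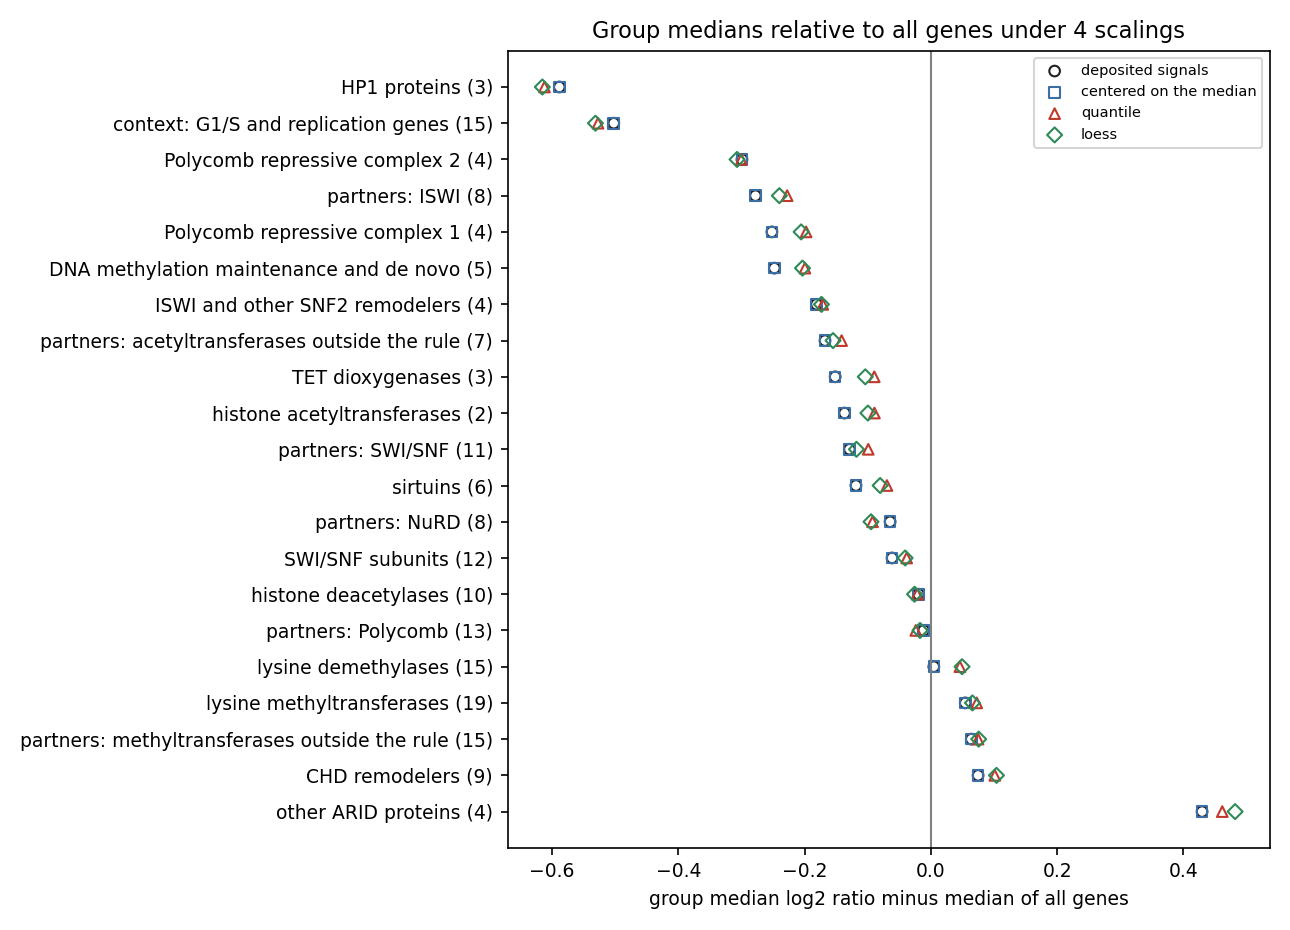
For each group (rows, number of genes in parentheses) the median log2 ratio minus the median of all genes is plotted (x axis) for the deposited signals and after centering, quantile normalization and loess. HP1 proteins and the G1/S and replication genes lie farthest left, at -0.62 to -0.59 and -0.53 to -0.50.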

How the data were processed

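Gene expression was measured in U87 cells on 2 Affymetrix U133 Plus arrays. What the authors deposited is a signal intensity on a linear scale for every probe set of each array. The submitters' processing notes name GCOS, and the methods name GeneSpring and the manufacturer's procedures. How the arrays were scaled is not given in the sources used here, and unequal scaling would shift every log2 ratio by 1 amount.

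Here 62 control probe sets were set aside, and 41091 of 54613 probe sets had 1 gene in the platform annotation. Of these, 41037 matched the RefSeq gene table of GRCh38.p14 by Entrez number. Log2 ratios, the filter at a mean signal of 19.8, the brightest probe set per gene and the paper's 2-fold threshold were used without a test. Named genes are the members past 2-fold, the lowest and highest of each role group, the paralog pairs and others chosen after their values were seen. The members and lists were chosen with earlier results of these data known. Bounds take the higher background, 18.4, for both arrays. There were 9 alternative settings. Steps were checked on simulated data. Tools were pandas 2.3.3, numpy 2.4.6, statsmodels 0.14.6 (loess) and matplotlib 3.10.9 under Python 3.11.15. Protein identity between paralogs was not computed.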

Additional observations from a re-analysis of the deposited data

How the results depend on the processing

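With 1 array per condition no replicate could be left out, and no paired analysis was possible because each condition has 1 array. The number of chromatin genes lower by more than 2-fold, 6 with the deposited signals, was 3 after loess, 3 with a pseudocount of 16 on both signals, 2 with a filter at the 70th percentile (a mean signal of 75.7, so that fewer genes were read) and 12 with no filter. It was 5 after centering and after quantile normalization, 4 when probe sets were averaged and 7 without probe sets ending in _x_at or _s_at. Chromatin genes read were 102, but 80 at the 70th percentile, 113 with no filter and 76 without _x_at and _s_at. All genes gave 575 of 11624 with the deposited signals, 248 after loess, 265 with the pseudocount, 268 after centering and 261 after quantile normalization. They gave 527 when averaged, 525 of 9010 without _x_at and _s_at, 210 of 8553 at the 70th percentile and 3114 of 19775 with no filter. The number of chromatin genes higher, 1, was 2 after centering, quantile normalization or loess, where ARID5A joined SETD1A, 3 with no filter and 0 at the stricter filter. Over all genes it was 60 with the deposited signals, 136 after centering, 147 after quantile normalization and 155 after loess. With no filter it was 1766 and at the stricter filter 0. Partners lower by more than 2-fold, 3 at first, were 0 after centering, quantile normalization or loess, 5 with no filter and 1 without _x_at and _s_at probe sets. Relative to all genes, the sirtuin median, -0.12 with the deposited signals, was -0.86 without _x_at and _s_at probe sets, over 2 genes, 0.11 with no filter and 0.21 at the stricter filter, so its sign is not settled. That of Polycomb repressive complex 1 went from -0.25 to 0.21 at the stricter filter, where the dim CBX2 is left out. The -0.86 and the latter moved by more than 0.41, the SD between probe sets, and the other group medians by less. That of HP1 stayed at -0.66 to -0.55 in every setting, whereas that of PRC2, -0.30 with the deposited signals, was 0.02 without _x_at and _s_at probe sets, over 2 genes. SMARCD2 fell short of 2-fold after centering (-0.78), quantile normalization (-0.73), loess (-0.76) and with the pseudocount (-0.92), and CBX2 and KDM7A after loess (-0.94 and -0.95) and with the pseudocount (-0.75 and -0.74). HELLS and SIRT3 stayed past 2-fold under the 3 scalings and fell short when probe sets were averaged (-0.77 and -0.60). The causes of these differences were not tested. Signal over background limits HDAC5, CBX2, KDM7A, SETD1A and ARID5A, of which bounds alone are known.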
